A study of Homo sapiens with 132 samples.

Results

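The 51 genes described here encode the proteins that license DNA replication origins, unwind the DNA and carry the replication fork through S phase. They were chosen by name, and their counts were read from the table of each library, in which they make up 51 of 65217 gene identifiers. By role they comprised 4 genes of origin recognition, 3 of licensing, 6 of the MCM2 to MCM7 helicase, 4 firing kinases and cyclins, 6 helicase activators, 9 primase and polymerase genes, 6 clamp and clamp loader genes, 3 genes of single-strand binding, 2 of Okazaki fragment processing, 5 of fork protection and 3 of chromatin assembly and histone mRNA. RNA of 4 established gastric cancer cell lines was sequenced under 44 conditions, with 3 libraries per condition, which the series describes as biological replicates. MKN1 and Hs746T cells were left untreated or received EGF (5 ng/ml), the EGFR antibody cetuximab (Cet, 1 μg/ml), both, the HER2 antibody trastuzumab (Tra, 5 μg/ml), the irreversible EGFR and HER2 kinase inhibitor afatinib (Afa, 0.5 μM) or trastuzumab + afatinib. The other two lines, MKN7 and NCI-N87, received nothing, trastuzumab, afatinib or trastuzumab + afatinib, at the same doses. Each condition was sampled after 4 h and after 24 h. Afatinib was set against untreated and not against solvent-treated cells, so the drug and its solvent cannot be told apart here, and each line stands only for itself.

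A eukaryotic origin is licensed in G1, when the origin recognition complex with CDC6 and CDT1 loads the MCM2 to MCM7 helicase onto DNA in an inactive form. The kinase CDC7 with DBF4, and CDK2 with cyclin E, then allow CDC45, GINS and MCM10 to turn the loaded helicase into a moving fork, behind which primase, the replicative polymerases, the sliding clamp PCNA and its loader copy the DNA. Many of these genes are transcribed in late G1 and S phase through E2F sites in their promoters, and their mRNA is low in cells that have left the cycle.

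Levels are given in CPM, the counts of a gene relative to the total of its library, scaled within a cell line by the trimmed mean of M values (TMM) that edgeR applies. The libraries held 25832557 to 69434151 counts, and 3 counts corresponded to between 0.0432 and 0.116 CPM (counting error only). FEN1, the flap endonuclease of Okazaki fragments, stood apart with 2 to 39 counts in a library and was too low to be tested in NCI-N87 and MKN7 cells, where 50 of the 51 genes were tested. CDK2, which cycling cells use, and POLD4, RNASEH2A and ASF1A are listed at 0 in every library, so reads of some genes may have been lost in counting. Whether those of FEN1 were was not tested, and its counts are not read as a level here. In Hs746T cells the library of replicate 1 had the lowest summed level of the 51 genes in each of the 14 conditions. Of 6 epithelial markers, EPCAM, KRT8, KRT18, KRT19, CDH1 and CLDN4, each had an untreated mean of at least 148 CPM in NCI-N87 and MKN7 cells. In MKN1 cells the 3 keratins were at 3147 CPM or more, but EPCAM, CLDN4 and CDH1, which encodes E-cadherin, were at 23.5, 9.77 and 2.02 CPM. In Hs746T cells KRT8, CLDN4 and KRT18 were at 348, 319 and 147 CPM, and EPCAM, KRT19 and CDH1 at 30.4, 29.3 and 0.821 CPM. Of 5 fibroblast markers, COL1A1 and COL1A2 reached 566 and 175 CPM in Hs746T cells, LUM was at 97.3 CPM in MKN1 and 0.423 CPM in Hs746T cells, and COL3A1 and DCN were at most at 2.29 CPM in any line. Of 3 endothelial markers, PECAM1 was at 166 CPM in Hs746T and 13.2 CPM in MKN1 cells, with VWF and CDH5 at most at 1.35 CPM. The leukocyte markers PTPRC and CD3E were at or below 0.45 CPM on average in every line. A further one, CD68, is listed at 0 in every library and shares 81.7% of its exon bases with another gene on the same strand, so its 0 says nothing of its level.

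The promoters are shown because the members moved together. Of the 51 genes, 43 had a window from 250 bases before to 50 bases after the transcript start in the RefSeq promoter table (GRCh38.p14). An E2F string, here TTTCGCGC, TTTGGCGC, TTTCCCGC or TTTGCCGC, on either strand, occurred in the windows of 21 of these 43 genes (48.8%), against 5.40% of 15843 protein-coding genes and 3.99% of all 27305 genes in the table. The CCAAT string occurred in 58.1% of the members and 42.1% of the protein-coding genes, and the CHR strings TTTGAA or TTCGAA in 4.65% and 17.5%. The TTTGGCGC and TTTCGCGC strings overlap in MCM6, on opposite strands, within each capital run. A match is a string of letters, not a measured binding site. Only these exact strings were searched, so a window without them is not shown to lack an E2F site. The stretches below lie before the RefSeq start, outside the exons of GENCODE 29, and are written 5′ to 3′ on the strand of the gene, with the E2F strings in capitals. MCM6, MCM3, PCNA and POLA1, of the helicase ring, the clamp and the polymerases, carry such strings. MCM10 and ORC2 are shown as members without them, MCM10 with the largest fall and ORC2 with a small one in the data that follow.
MCM6, chr2:135876519-135876598, minus strand: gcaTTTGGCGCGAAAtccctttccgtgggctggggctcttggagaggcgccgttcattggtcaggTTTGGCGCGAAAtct
MCM3, chr6:52284882-52284942, minus strand: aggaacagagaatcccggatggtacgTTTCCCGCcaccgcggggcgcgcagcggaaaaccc
PCNA, chr20:5126643-5126702, minus strand: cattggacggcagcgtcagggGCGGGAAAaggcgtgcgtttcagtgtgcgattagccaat
POLA1, chrX:24693758-24693817, plus strand: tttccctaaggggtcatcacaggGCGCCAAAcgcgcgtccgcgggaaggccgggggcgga
MCM10, chr10:13161494-13161553, plus strand: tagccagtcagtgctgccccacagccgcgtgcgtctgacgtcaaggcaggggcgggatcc
ORC2, chr2:200963681-200963740, minus strand: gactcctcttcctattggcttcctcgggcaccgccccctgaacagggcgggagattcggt

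After 24 h of afatinib, nearly the whole replication module was lower in NCI-N87 cells. Of the 50 genes tested, 49 fell and 0 rose at an adjusted p below 0.05 in edgeR's quasi-likelihood test with Benjamini-Hochberg adjustment, where 31% of all tested genes fell and 31.5% rose. A fall of more than 2-fold was seen for 45 members, against 11.5% of all genes. The median log2FC over the members was -1.86, beside 0.03 over all genes tested. The summed level of the 51 genes was 4796, 4878 and 5111 CPM in the untreated libraries and 1170, 1222 and 1450 CPM in the afatinib libraries. In bulk RNA, fewer replicating cells and less of these mRNAs per cell cannot be told apart. Of the 7 fibroblast and endothelial markers tested in these cells, 4 rose after 24 h of afatinib, among them COL1A1 (0.62) and VWF (1.45). The direction of the others is not given here. In untreated NCI-N87 cells COL1A1 averaged 14.962 CPM and VWF 1.029 CPM, and every other fibroblast or endothelial marker was below VWF. The part of these markers in the result was not tested. Scaling by library size alone moved the median of all genes from 0.03 to 0.29 and that of the members to -1.60.

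**Figure D1:**
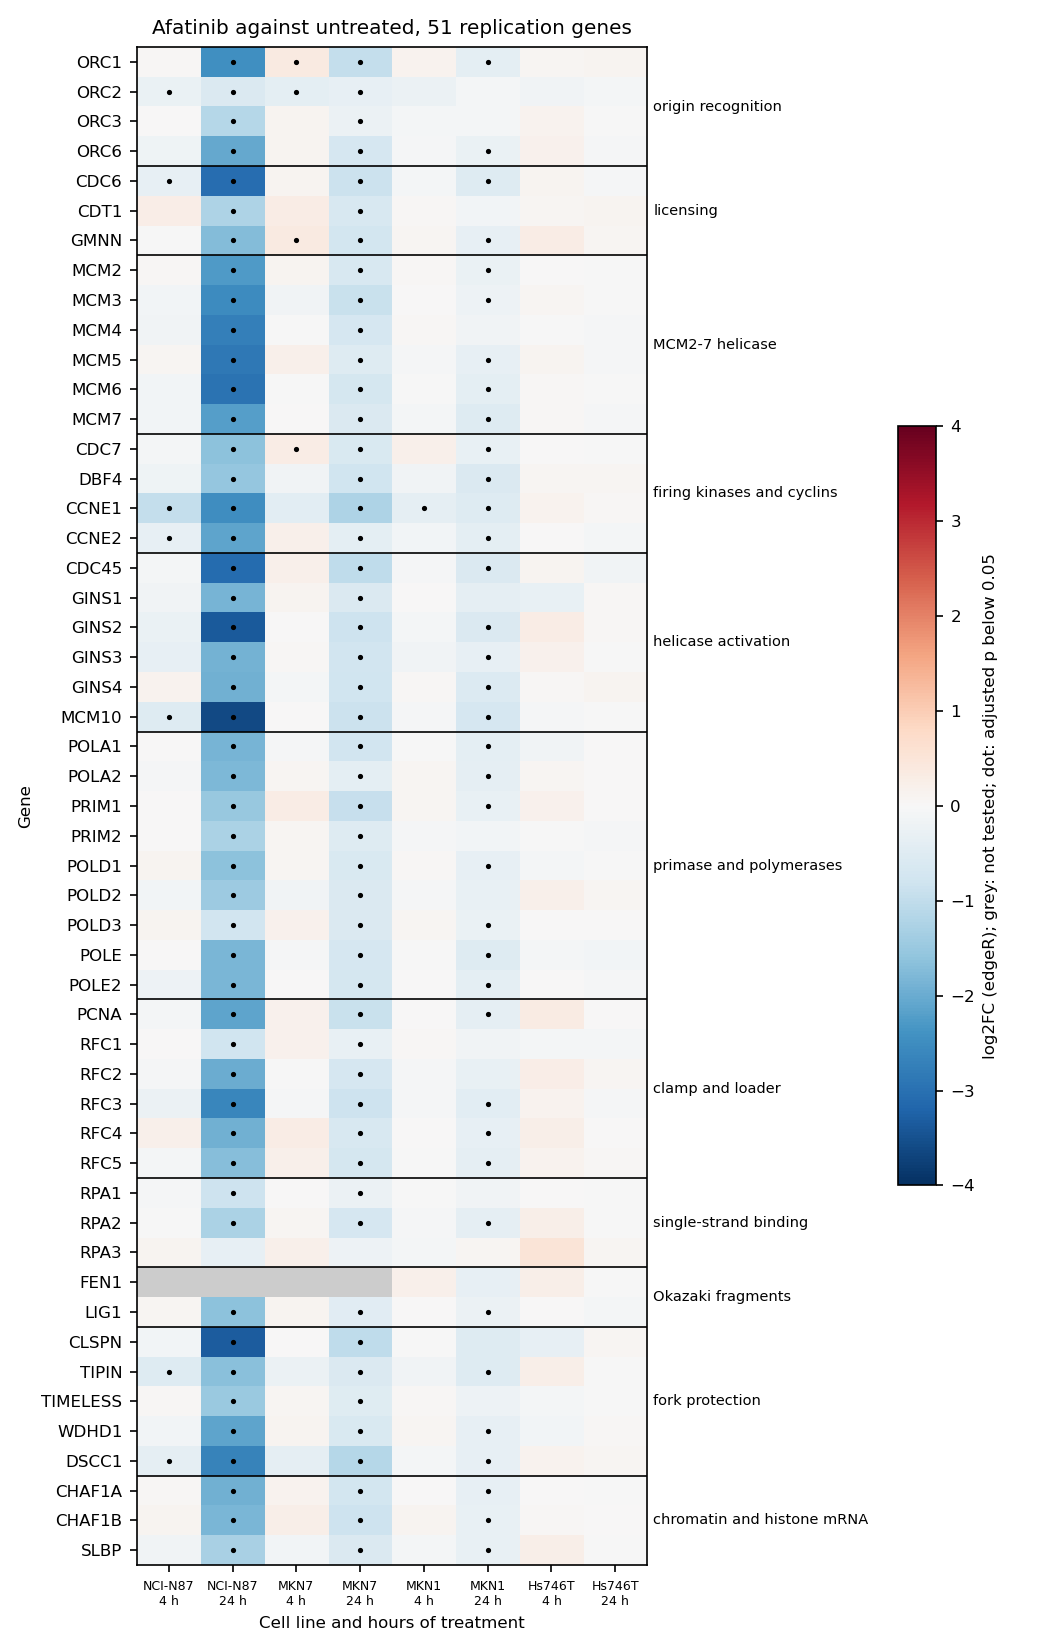
Heat map of the log2FC between afatinib and untreated cells for the 51 genes (rows, grouped by role) in each cell line after 4 h and 24 h (columns), where dots mark an adjusted p below 0.05 in edgeR and grey cells were not tested. The NCI-N87 column at 24 h is blue throughout, with 49 dots, the MKN7 column at 24 h is paler with 49 dots, the MKN1 column at 24 h holds 37, and the Hs746T columns hold none.

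Within the origin recognition complex the subunits differed widely in NCI-N87 cells. ORC1 (ENSG00000085840, chr1:52372829-52404459), its cell cycle-regulated ATPase, was at 50.9, 57.4 and 59.4 CPM in untreated and 9.16, 10.4 and 10.9 CPM in afatinib-treated cells (log2FC -2.46, SE 0.08, adjusted p = 2.34e-15). ORC2 (ENSG00000115942, chr2:200908973-200963680), a core subunit, was at 55.1, 57.9 and 64.3 CPM and 37.5, 41.6 and 40.3 CPM (log2FC -0.57, SE 0.08, adjusted p = 2.75e-06). The groups did not overlap for either gene, but the level of ORC1 dropped 5.49-fold and that of ORC2 only 1.48-fold. ORC6 lay near ORC1 (log2FC -2.05) and ORC3 between them (-1.15).

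Both factors that bring the helicase to the origin fell. CDC6 (ENSG00000094804, chr17:40287633-40304657), the loading ATPase, was at 395, 407 and 435 CPM without treatment and 46.4, 47.8 and 55.8 CPM with afatinib (log2FC -3.04, SE 0.10, adjusted p = 1.51e-15). CDT1, its partner, went from 66.1, 71.5 and 81.3 CPM to 25.8, 29.3 and 37.9 CPM (log2FC -1.23, SE 0.15, adjusted p = 2.86e-07). Every afatinib library was below every untreated library, and CDC6 changed 8.25-fold against 2.35-fold for CDT1. Geminin (GMNN), the protein that holds CDT1 inactive after S phase begins, was at 25.9, 26.9 and 25.3 CPM and 7.73, 7.09 and 8.88 CPM (log2FC -1.72, SE 0.15, adjusted p = 1.67e-09).

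The MCM2 to MCM7 subunits, which form the ring of the helicase, fell as a set in NCI-N87 cells, with a log2FC between -2.94 and -2.20. MCM6 (ENSG00000076003, chr2:135839626-135876426) showed the largest fall of the ring, from 146, 140.5 and 154 CPM to 18.2, 17.4 and 22.0 CPM (log2FC -2.94, SE 0.13, adjusted p = 1.07e-13). MCM7 (ENSG00000166508, chr7:100092728-100101940) showed the smallest, from 366, 359 and 378 CPM to 76.5, 68.6 and 94.4 CPM (log2FC -2.20, SE 0.14, adjusted p = 1.41e-11). The groups were separated for both, and the falls ran from 4.60-fold to 7.66-fold. MCM2, MCM3, MCM4 and MCM5 lay between them at -2.28, -2.51, -2.75 and -2.85.

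The genes that fire the licensed origin were lower as well. CCNE1 (ENSG00000105173, chr19:29811898-29824308), which encodes cyclin E1, the activator of CDK2 at the entry to S phase, was at 23.2, 24.8 and 21.9 CPM and 4.17, 4.09 and 4.13 CPM (log2FC -2.50, SE 0.11, adjusted p = 5.97e-14). DBF4, the regulatory subunit of the CDC7 kinase, was at 52.3, 56.2 and 65.9 CPM and 16.9, 20.9 and 22.1 CPM (log2FC -1.54, SE 0.11, adjusted p = 1.99e-10). CDC7 itself was at 63.8, 65.4 and 71.4 CPM and 18.7, 22.1 and 23.5 CPM (log2FC -1.64, SE 0.12, adjusted p = 1.47e-10). The 3 genes were separated from untreated cells in each library, and cyclin E2 (CCNE2) had a log2FC of -2.10.

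The activators of the helicase held the largest falls of the module. MCM10 (ENSG00000065328, chr10:13161554-13211104), which is needed to start the movement of the helicase, was at 67.5, 75.0 and 71.1 CPM in untreated cells and 5.59, 5.74 and 6.02 CPM after afatinib (log2FC -3.62, SE 0.09, adjusted p = 6.69e-17), a 12.3-fold difference and the largest of the 50 genes tested. GINS1, a subunit of the GINS complex, moved least of this role, from 33.4, 37.5 and 38.0 CPM to 10.0, 10.5 and 9.34 CPM (log2FC -1.86, SE 0.11, adjusted p = 2.87e-12). Groups were far apart for both, relative to the spread within them. GINS2 and CDC45, parts of the active helicase, had log2FC values of -3.37 and -3.06, and GINS3 and GINS4 of -1.89 and -1.92.

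Primase and polymerase genes had a smaller median change than the helicase genes. Their median log2FC was -1.63, against -2.63 for the helicase ring and -2.49 for its activators, a description over few genes without a test. POLA1, the catalytic subunit of polymerase alpha, was at 63.4, 69.7 and 72.8 CPM and 17.7, 19.7 and 19.2 CPM (log2FC -1.86, SE 0.08, adjusted p = 1.13e-13). POLD3, an accessory subunit of polymerase delta, was at 68.8, 68.2 and 70.2 CPM and 38.3, 40.2 and 42.3 CPM (log2FC -0.78, SE 0.07, adjusted p = 1.28e-09). All 9 genes were lower without overlap of the groups, and POLD3 was the only one within a 2-fold change. In GENCODE, 35.1% of the exon bases of POLA2 and 16.2% of those of PRIM1 are shared with another gene on the same strand, so reads there may be split between genes, and their log2FC values of -1.79 and -1.53 are less certain.

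Among the clamp and its loader, RFC3 fell most and RFC1 least. RFC3 (ENSG00000133119, chr13:33818049-33966558), a small loader subunit, went from 111, 123 and 139 CPM to 14.9, 19.0 and 27.7 CPM (log2FC -2.60, SE 0.20, adjusted p = 2.99e-10). RFC1, the large subunit of the loader, went from 72.6, 75.6 and 83.7 CPM to 41.9, 45.4 and 45.0 CPM (log2FC -0.81, SE 0.08, adjusted p = 1.02e-08). Both differed without overlap, RFC3 by 6.07-fold and RFC1 by 1.75-fold. PCNA, the sliding clamp, had a log2FC of -2.09.

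The subunits of RPA, which coats single-stranded DNA, had the smallest median change of the roles, -0.83. RPA2 was at 30.6, 29.8 and 30.3 CPM and 11.2, 12.1 and 14.3 CPM (log2FC -1.27, SE 0.13, adjusted p = 1.94e-08). RPA3, the smallest subunit, was at 39.1, 34.0 and 43.0 CPM and 28.6, 27.0 and 37.4 CPM (log2FC -0.32, SE 0.23, adjusted p = 0.232). RPA3 was the only tested member whose groups overlapped and whose adjusted p missed 0.05 in NCI-N87 cells. It passed when the replicate number was added as a block, where all 50 genes tested were lower. RPA1 had a log2FC of -0.83. How many of all genes had groups without overlap was not counted, here or in the other comparisons.

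Genes that seal, protect and repackage the new DNA followed the same direction. LIG1, which joins Okazaki fragments, was at 110.01, 114 and 117 CPM and 33.6, 34.7 and 40.0 CPM (log2FC -1.65, SE 0.09, adjusted p = 9.91e-13). CLSPN (ENSG00000092853, chr1:35720218-35769967), which encodes the checkpoint mediator claspin, was at 53.2, 65.3 and 72.6 CPM and 6.24, 6.24 and 6.50 CPM (log2FC -3.33, SE 0.18, adjusted p = 1.5e-12). Its partner at the fork, TIMELESS, was at 144, 143 and 141 CPM and 47.0, 50.0 and 57.1 CPM (log2FC -1.47, SE 0.07, adjusted p = 1.54e-13). Claspin mRNA thus differed 10.1-fold and TIMELESS mRNA 2.78-fold, with TIPIN, WDHD1 and DSCC1 between them. In GENCODE, TIPIN shares 21.02% of its exon bases with the pseudogene RPL9P25 on the same strand, so its values here and in the other comparisons are less certain. CHAF1A, the large subunit of the histone chaperone CAF-1, was at 70.9, 76.8 and 75.2 CPM and 18.7, 19.1 and 21.6 CPM (log2FC -1.91, SE 0.08, adjusted p = 2.76e-14). SLBP, the protein that binds the stem-loop of histone mRNA, was at 67.2, 67.2 and 75.6 CPM and 26.5, 27.2 and 31.5 CPM (log2FC -1.30, SE 0.14, adjusted p = 3.3e-08). Neither gene had a library of one group within the range of the other.

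Large and small falls occurred both with and without an E2F string. The 21 members with a string had a median log2FC of -1.87 (range -3.37 to -1.15) in NCI-N87 cells at 24 h, and the 21 tested members with a window but no string had a median of -1.71 (range -3.62 to -0.57). MCM10, CDC45 and CCNE1, with 3 of the larger falls, had none of the strings in the window, and neither did RPA1, RFC1 and ORC2, with smaller falls. MCM6, with overlapping strings at each of the 2 places printed above, had a log2FC of -2.94.

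**Figure D2:**
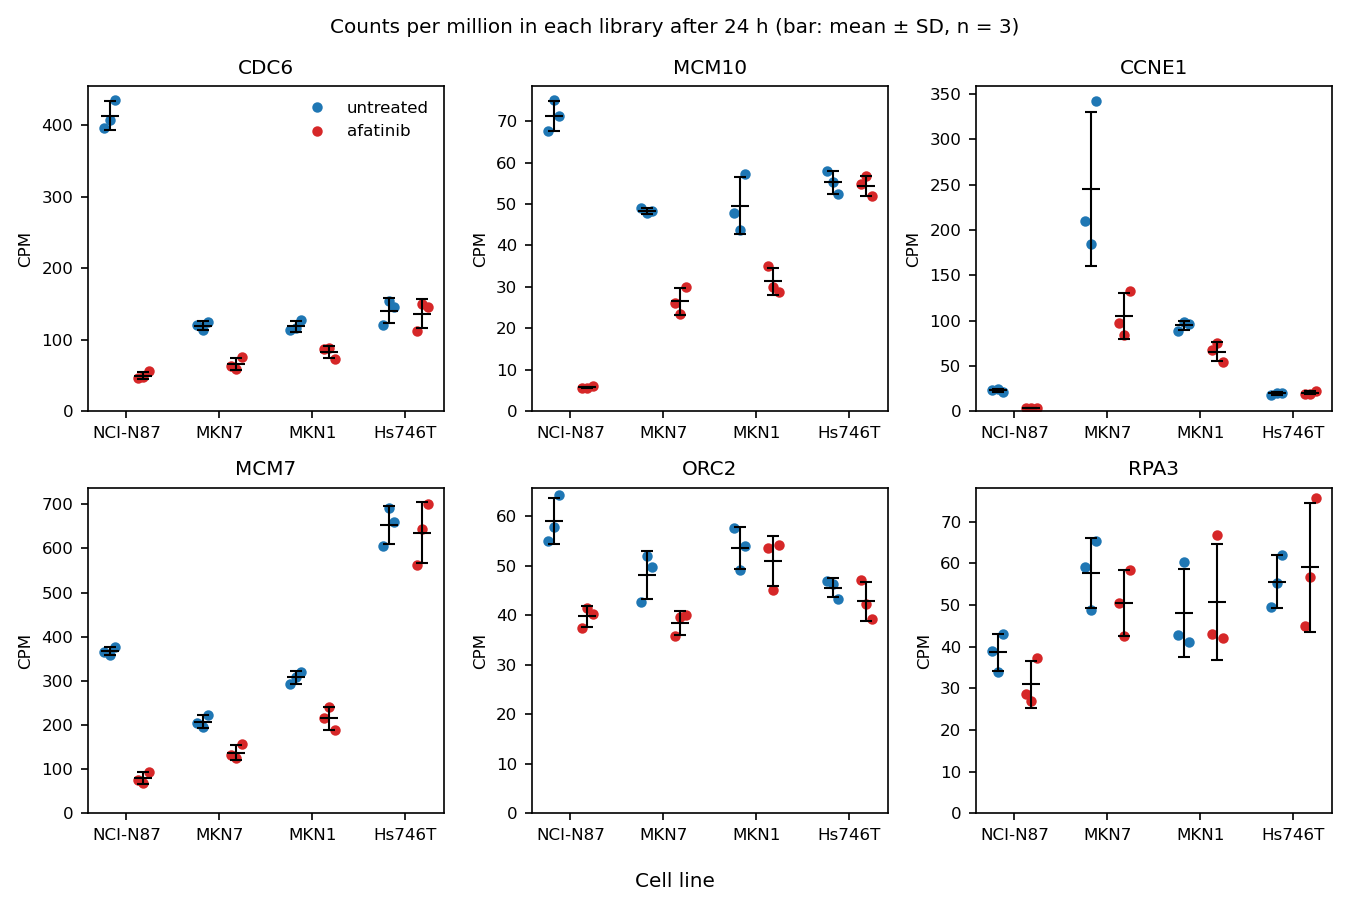
CPM (vertical axis, starting at 0) of CDC6, MCM10, CCNE1, MCM7, ORC2 and RPA3 in each of the 3 untreated (blue) and 3 afatinib (red) libraries after 24 h in the 4 cell lines, with the mean ± SD. Afatinib libraries of NCI-N87 cells lie far below the untreated ones for all genes but ORC2 and RPA3, those of Hs746T cells overlap for every gene, and CCNE1 is highest in MKN7 cells.

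The direction was the same in MKN7 cells after 24 h of afatinib, but the size was smaller. Again 49 of 50 tested members fell and 0 rose (all genes: 25% lower and 26.6% higher), with a median log2FC of -0.67 beside 0.04 for all genes. Only 4 members changed more than 2-fold, where 3.25% of all genes fell by as much, and the count was 2 without replicate 2, 6 without replicate 3 and 2 with library size alone or with at least 10 counts in every library. CCNE1 was at 209.6, 184 and 342 CPM without treatment and 97.2, 83.9 and 133 CPM with afatinib (log2FC -1.23, SE 0.22, adjusted p = 8.28e-05). DSCC1, part of an alternative clamp loader, was at 33.3, 31.7 and 43.4 CPM and 14.3, 13.6 and 21.4 CPM (log2FC -1.14, SE 0.17, adjusted p = 1.31e-05). Replicate 3 was the highest library of both genes in either group, yet its afatinib value stayed below each untreated value. CLSPN and CDC45 had log2FC values of -1.03 and -1.01. MCM10, which led in NCI-N87 cells, was at 49.1, 47.8 and 48.2 CPM and 26.2, 23.5 and 30.0 CPM (log2FC -0.87, SE 0.07, adjusted p = 8.5e-09). At the other end stood RPA3 with 59.1, 48.8 and 65.3 CPM and 50.5, 42.6 and 58.4 CPM (log2FC -0.19, SE 0.15, adjusted p = 0.301), again the only tested member with overlapping groups.

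In MKN1 cells, 37 of 51 members fell after 24 h of afatinib and 0 rose (13.3% and 12.2% of all genes), none of them beyond 2-fold (all genes: 1.02%). The median log2FC was -0.33, beside 0.01 for all genes. MCM10 was at 48.0, 43.7 and 57.1 CPM and 35.1, 30.1 and 28.9 CPM (log2FC -0.66, SE 0.12, adjusted p = 1.02e-04). MCM7 was at 293, 309.7 and 321 CPM and 215, 242 and 188 CPM (log2FC -0.52, SE 0.07, adjusted p = 2.35e-06). Their groups did not overlap, although the difference was a fraction of that in NCI-N87 cells. ORC2, at 57.6, 49.3 and 54.0 CPM and 53.6, 45.2 and 54.2 CPM, overlapped (log2FC -0.07, SE 0.07, adjusted p = 0.514), and RPA3 had the only positive log2FC, 0.08 (adjusted p = 0.855). The count depended on the libraries: it was 24 without replicate 1, 41 without replicate 2 and 9 without replicate 3, whose afatinib library had the lowest summed level, and 12 in a fit of the compared groups alone. DESeq2 called 38 falls and 0 rises. With the replicate number as a block 45 fell and 0 rose, a fit whose share of all genes is not given here.

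After 24 h of afatinib, Hs746T cells showed no detectable change of the module. None of the 51 members passed the adjusted threshold (edgeR, with and without the replicate number as a block, and DESeq2 called 0, and 0 members had an unadjusted p below 0.05), and 0% of all genes fell or rose past it. Their log2FC values lay between -0.13 (CDC45) and 0.10 (CDT1), with a median of -0.01. MCM10 was at 58.0, 55.3 and 52.5 CPM untreated and 54.8, 56.6 and 51.9 CPM treated, and CDC6 at 121, 154 and 146 CPM and 113, 149.9 and 146 CPM. In both genes the groups overlapped. The comparison at 4 h, where the fit with the block did make calls, stands with the other lines at that time.

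The difference between the lines was tested as an interaction in a joint fit of the 4 lines. The afatinib effect at 24 h was more negative in NCI-N87 than in MKN7 cells for 45 of 51 members (12.7% of all genes, and 8.68% less negative), than in MKN1 cells for 48 (15.9% and 12%) and than in Hs746T cells for 49 (19.2% and 16%). MKN7 cells differed from Hs746T cells for 41 members (10.5% and 8.23%), or 25 without replicate 2. MKN7 and MKN1 cells differed for 10 (3.94% and 3.67%), among them CCNE1 and PCNA, and MKN1 and Hs746T cells for 5 (2.39% and 1.98%), namely ORC1, DBF4, MCM7, GINS4 and MCM10. With the replicate number as a block these became 37 and 38, while the shares of all genes given here belong to the fit without it. Leaving out a replicate gave 0 to 8 for both, the 0 being without replicate 2 for MKN7 and MKN1 cells and without replicate 3 for MKN1 and Hs746T cells. No member had a significantly less negative effect in the line named first. For MCM10 the log2FC in NCI-N87 cells was below that in MKN7 cells by 2.73 on the log2 scale (interaction -2.73, SE 0.14, adjusted p = 1.61e-29).

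The members ranked alike in the lines that responded. Across the 50 genes tested in each, the log2FC at 24 h in NCI-N87 and MKN7 cells had a Pearson's r of 0.67 and a Spearman's rho of 0.63, NCI-N87 and MKN1 cells 0.68 and 0.60, and MKN7 and MKN1 cells 0.63 and 0.57. NCI-N87 and Hs746T cells had 0.05 and 0.09. These are descriptions across genes of shared libraries, and genes are not replicates. The change in MKN7 cells was 0.366 of that in NCI-N87 cells for the median member, and that in MKN1 cells 0.169.

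After 4 h few members were called in the fit without the replicate number as a block, and more were called with it. Shares of all genes are those of the fit without the block. How many of all genes the block called is not given, here or in the other comparisons. In NCI-N87 cells 7 of 50 fell and 0 rose (9.1% and 9.06% of all genes), or 11 and 1 with the replicate number as a block, and the median log2FC was -0.07. CCNE1 was already at 12.0, 11.7 and 12.6 CPM, against 22.9, 22.1 and 26.2 CPM untreated (log2FC -0.97, SE 0.10, adjusted p = 5.56e-07). MCM10 was at 76.4, 63.9 and 66.6 CPM and 50.0, 45.6 and 48.0 CPM (log2FC -0.53, SE 0.08, adjusted p = 8.58e-05). Cyclin E1 mRNA was thus 1.95-fold lower within 4 h, and MCM10 1.44-fold, without overlap of the groups. The others that fell were TIPIN, DSCC1, CCNE2, CDC6 and ORC2, with log2FC from -0.51 to -0.28. Leaving out replicate 1, 2 or 3 gave 4, 2 and 8 members.

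MKN7 cells at 4 h showed both directions. Only ORC2 fell, from 40.2, 48.8 and 47.0 CPM to 31.0, 38.6 and 34.6 CPM (log2FC -0.39, SE 0.10, adjusted p = 0.00864), as 12.1% of all genes did. The licensing inhibitor geminin rose, from 72.5, 70.5 and 61.9 CPM to 90.8, 80.1 and 93.6 CPM (log2FC 0.37, SE 0.13, adjusted p = 0.0416). Geminin and ORC2 were separated from untreated cells in all libraries. ORC1 rose from 22.4, 19.5 and 19.4 CPM to 26.9, 25.5 and 26.3 CPM (log2FC 0.36, SE 0.13, adjusted p = 0.0432). CDC7 rose from 27.9, 29.4 and 24.9 CPM to 36.0, 33.9 and 30.9 CPM (log2FC 0.30, SE 0.10, adjusted p = 0.0428). These 3 rises, where 10.1% of all genes rose, depended on the libraries, since without replicate 1 or replicate 2 a single fall and no rise was called, and without replicate 3 there were 3 falls and 2 rises. With the replicate number as a block, 6 members fell and 13 rose, again without a share of all genes to set beside them. All 3 genes were below the untreated level at 24 h, with log2FC of -0.75 for GMNN, -0.96 for ORC1 and -0.62 for CDC7.

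CCNE1 was the only member called in MKN1 cells at 4 h (2.41% of all genes fell and 1.27% rose), at 124, 145 and 135 CPM and 98.8, 113 and 99.7 CPM (log2FC -0.37, SE 0.11, adjusted p = 0.0379). It was called in no fit that left out a replicate, and the block gave 2 falls and 1 rise. In Hs746T cells 0 members were called by edgeR, where 0% of all genes passed, and 0 by DESeq2. Of the members, 5 had an unadjusted p below 0.05 in edgeR. The block called 5 falls and 15 rises, without a share of all genes to set beside them. At the ends of the range without the block were RPA3, at 45.8, 54.3 and 56.7 CPM and 65.2, 96.0 and 62.9 CPM (log2FC 0.51, SE 0.29, adjusted p = 0.718), and CLSPN, at 331, 323 and 310.1 CPM and 276, 222 and 273 CPM (log2FC -0.32, SE 0.18, adjusted p = 0.712).

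The growth of the afatinib effect from 4 h to 24 h was itself tested. It became more negative for 49 members in NCI-N87 cells (20.5% of all genes, and 15.3% more positive), for 45 in MKN7 cells (9.28% and 8.68%), or 23 without replicate 1, and for 7 in MKN1 cells (1.43% and 1.34%). In MKN1 cells the block called 33, the fits without replicate 1, without replicate 3 and of the compared groups alone called 0, and the fit without replicate 2 called 17. ORC2 changed least between the times, by -0.29 in NCI-N87 cells (adjusted p = 0.0489) and 0.06 in MKN7 cells (adjusted p = 0.813). CLSPN changed most in NCI-N87 cells (-3.22, SE 0.24) and ORC1 in MKN7 cells (-1.32, SE 0.18). In Hs746T cells 0 members were called by edgeR (0% of all genes) and DESeq2, with 0 and 2 at an unadjusted p below 0.05.

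Trastuzumab alone moved no member past the threshold in any line at either time. The counts were 0 in all 8 comparisons with edgeR, with DESeq2 and with the block (0% of all genes in edgeR). At an unadjusted p below 0.05, edgeR listed 1 and 3 of 50 members in NCI-N87 cells at 4 h and 24 h, 1 and 1 in MKN7 cells and 0 in MKN1 and Hs746T cells. MCM10 in NCI-N87 cells was at 58.0, 71.0 and 57.5 CPM after 24 h of trastuzumab, against 67.5, 75.0 and 71.1 CPM untreated (log2FC -0.20, SE 0.08, adjusted p = 1.00), and CLSPN had the lowest value, -0.38, SE 0.16. The ranges of MCM10 overlapped only through the trastuzumab library of replicate 2. RPA3 and RFC4 had the highest values, 0.22 and 0.12. In MKN7 cells at 24 h the values ran from -0.21 for CLSPN and -0.21 for CCNE1 to 0.09 for CCNE2 and 0.10 for RPA3.

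Trastuzumab + afatinib gave values close to those of afatinib. Both comparisons use the same untreated libraries, so the combination was also tested against afatinib directly at 24 h. There edgeR (0% of all genes) and DESeq2 called 0 members in each line, and 1 member in NCI-N87 cells had an unadjusted p below 0.05. Against untreated cells at 24 h, 49 members fell in NCI-N87 (32% of all genes fell and 32.7% rose), 49 in MKN7 (25.1% and 26.8%) and 37 in MKN1 cells (14.1% and 12.7%; 13 without replicate 3). In Hs746T cells 0 fell with either tool (0% of all genes in edgeR), and no member rose in any line. MCM10 was at 5.30, 5.54 and 5.57 CPM in NCI-N87 cells (log2FC -3.70, SE 0.09, adjusted p = 4.88e-17), below all untreated libraries. At the other end, RPA3 was at 23.7, 24.3 and 37.1 CPM (log2FC -0.45, SE 0.23, adjusted p = 0.0927). At 4 h, 6 members fell in NCI-N87 cells and 0 rose (9.32% and 7.98% of all genes; 13 falls and 4 rises with the block), led by CCNE1 (-0.93) and MCM10 (-0.50). In MKN7 cells ORC2 fell (-0.43) and ORC1 rose (0.36), beside 13% and 10.4% of all genes, and the block called 6 falls and 13 rises. MKN1 cells, where 2.59% of all genes fell and 1.36% rose, and Hs746T cells, with 0% for both, had 0 calls at 4 h with edgeR. In these lines 3 and 2 members had an unadjusted p below 0.05, DESeq2 called 2 and 0, and the block 3 and 2.

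**Figure D3:**
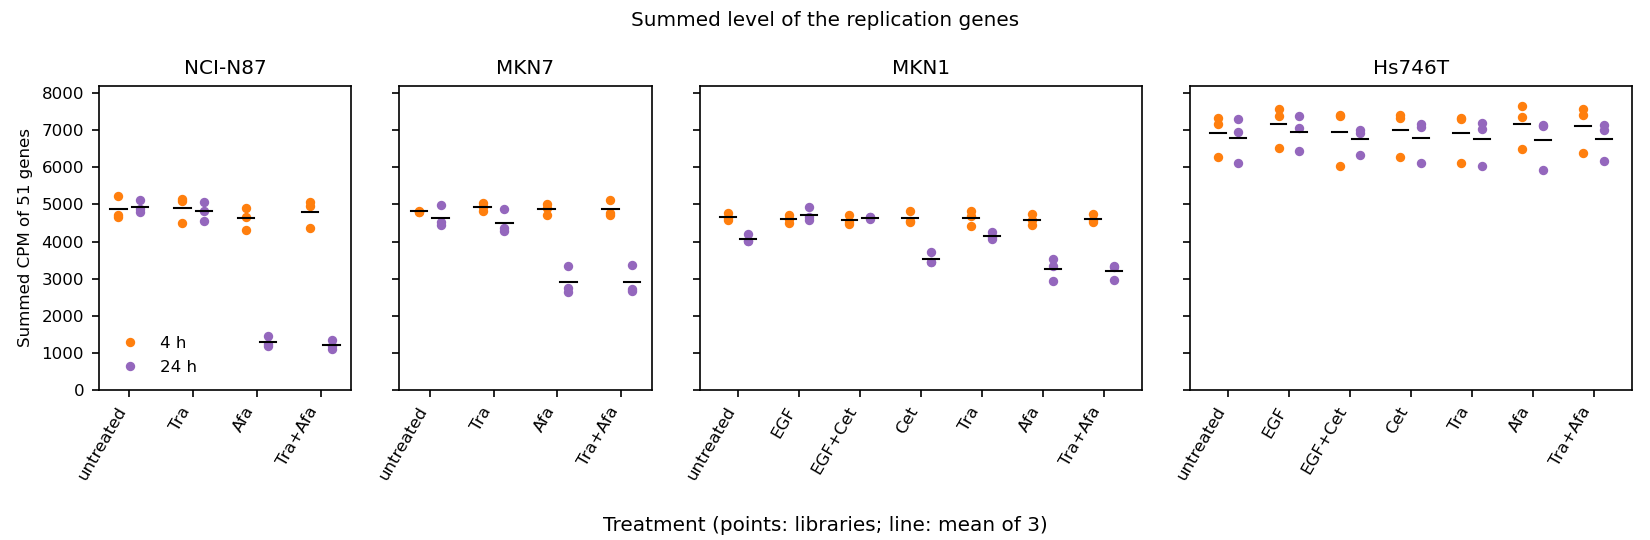
Summed CPM of the 51 genes (vertical axis, from 0) in each library of the 4 lines by treatment, with 4 h in orange, 24 h in purple and a line at the mean of 3 libraries. Sums after 24 h of afatinib, with or without trastuzumab, lie between 1106 and 1450 CPM in NCI-N87 cells, where untreated libraries lie between 4665 and 5241, and the Hs746T libraries lie between 5944 and 7659 over all conditions.

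EGF moved the module upward in MKN1 cells, which is the opposite direction to afatinib. After 24 h 22 of 51 members rose and 0 fell (17.3% of all genes rose and 18.5% fell), but when libraries were scaled by size alone 6 rose and 7 fell. The median log2FC was 0.17 for the members and -0.05 for all genes with TMM, and -0.03 and -0.24 with library size alone. CCNE1 was at 88.9, 99.0 and 96.6 CPM in untreated and 146, 158 and 134 CPM in EGF-treated cells (log2FC 0.62, SE 0.11, adjusted p = 2.12e-05). TIPIN was at 10.8, 12.3 and 11.8 CPM and 18.1, 21.3 and 15.6 CPM (log2FC 0.66, SE 0.11, adjusted p = 3.11e-05). GINS2 was at 28.9, 35.4 and 27.9 CPM and 44.2, 64.3 and 37.3 CPM (log2FC 0.66, SE 0.20, adjusted p = 0.00811). For these 3 genes each EGF library was above each untreated library. The lowest values were those of CDC7 (-0.16, SE 0.07) and CCNE2 (-0.13, SE 0.12), neither past the threshold. In a fit without replicate 1, 7 members were called, and in a fit of the compared groups alone 11. The fit with the replicate number as a block called 28 rises and 2 falls, and its share of all genes is not given.

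Cetuximab lowered members in MKN1 cells, in the direction of afatinib. Both were set against the same untreated libraries, and they were not tested against each other. At 24 h the deviations of the cetuximab libraries from their mean correlated by replicate number with those of trastuzumab + afatinib (0.734 to 0.808). With those of untreated cells they did so weakly or not at all (-0.0599 to 0.276). Whether the cetuximab libraries belong to a set apart from the untreated ones was not tested. After 24 h 14 of 51 fell and 0 rose (5.91% and 4.92% of all genes), with a median log2FC of -0.21. DBF4 was at 72.1, 73.8 and 79.9 CPM and 56.9, 60.3 and 51.1 CPM (log2FC -0.42, SE 0.09, adjusted p = 0.00186). MCM10 was at 48.0, 43.7 and 57.1 CPM and 41.4, 37.9 and 35.9 CPM (log2FC -0.37, SE 0.12, adjusted p = 0.0407). The groups did not overlap for either gene. GINS2 was lowest of the well counted members (-0.53, SE 0.20, adjusted p = 0.0787), and CCNE2 and ORC2 were highest at 0.05 and 0.01. Without replicates 1, 2 and 3 the count was 3, 8 and 0, and in a fit of the compared groups alone it was 2.

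Adding cetuximab did not detectably undo the effect of EGF on the module. EGF + cetuximab against EGF gave 0 called members at either time with edgeR and DESeq2, and 0 at an unadjusted p below 0.05, where 0.621% of all genes fell and 0.0807% rose at 4 h and 0.434% and 0.212% at 24 h. Against untreated cells, 11 members rose at 24 h (9.17% of all genes) and 0 fell (9.43%), or 26 and 0 with the replicate number as a block and 0 without replicate 1. CCNE1 was at 135, 142 and 131 CPM with the combination (log2FC 0.52, SE 0.11, adjusted p = 6.65e-04), within the span of the EGF libraries except for its lowest value. GINS2 had a log2FC of 0.47 and POLA2 of -0.06. At 4 h EGF lowered CDC7, from 32.0, 32.3 and 35.0 CPM to 26.8, 27.8 and 28.1 CPM (log2FC -0.26, SE 0.07, adjusted p = 0.0184; 2.45% of all genes fell and 4.37% rose). It was the only call, and there was none without a filter, in a fit of the compared groups alone, without replicate 1 or without replicate 3. The block gave 3 falls and library size alone 8. At the same time cetuximab gave 0 calls with edgeR and DESeq2 and 3 at an unadjusted p below 0.05, or 2 with the block (1.15% of all genes fell and 0.288% rose). EGF + cetuximab at 4 h gave 0 calls with both tools and 1 at an unadjusted p below 0.05 (0.106% and 0.611% of all genes).

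**Figure D4:**
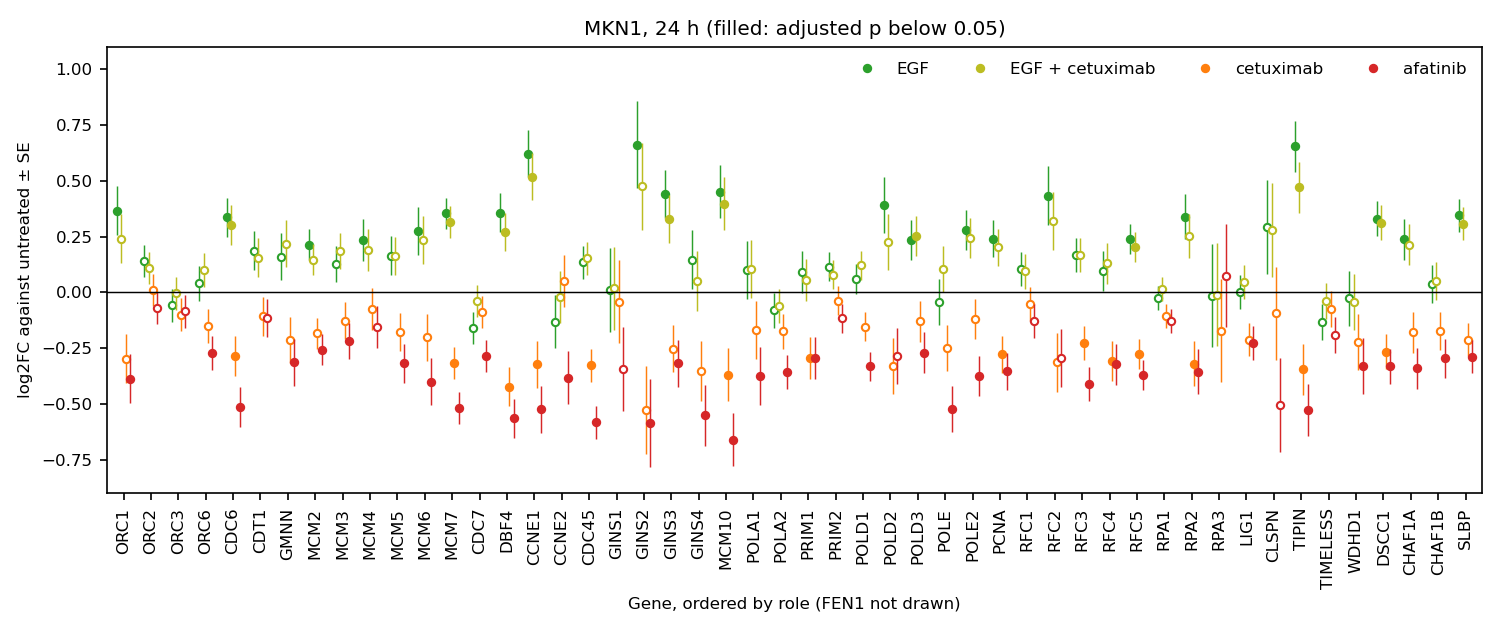
log2FC against untreated MKN1 cells at 24 h (vertical axis, ± SE from edgeR) for each gene and for EGF, EGF + cetuximab, cetuximab and afatinib, with filled points at an adjusted p below 0.05. Green and olive points lie mostly above 0 and orange and red points mostly below it, with afatinib lowest for most genes.

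In Hs746T cells EGF, cetuximab and their combination called no member at 4 h or 24 h. The counts were 0 with edgeR and DESeq2 in all 8 comparisons, including EGF + cetuximab against EGF, with at most 1 of 51 members at an unadjusted p below 0.05. Of all genes tested, edgeR called 0% in each of them, so the lack of calls is not particular to the members. After 24 h of EGF the log2FC ran from -0.09 for FEN1, which had few counts, and -0.02 for TIPIN to 0.11 for GINS4 and 0.13 for CLSPN.

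Untreated cells were also compared between the times. In MKN1 cells 17 members were lower and 2 higher at 24 h than at 4 h (16.4% and 17.7% of all genes), while library size alone gave 5 lower and 7 higher, and 6 were called without replicate 1. CCNE1 showed the largest difference in MKN1 cells, -0.50, SE 0.11, with GINS2 at -0.47 and PRIM2 and RPA1 highest at 0.21 and 0.17. MKN7 cells had 4 lower and 1 higher (9.43% and 6.96% of all genes), shares no larger than those of all genes, against 2 and 4 with library size alone, 1 without replicate 1 and 0 without replicate 2 or in a fit of the compared groups alone. NCI-N87 cells (0.189% of all genes lower and 0.0786% higher) and Hs746T cells (0.798% and 0.686%) had 0 with edgeR, with 1 and 6 at an unadjusted p below 0.05, and DESeq2 called 0 and 1. Each treatment was therefore set against the untreated libraries of its own time.

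Untreated levels of many members differed between the lines, as those of most genes did. Hs746T cells had the highest mean of 27 of the 51 genes, NCI-N87 cells of 11, MKN7 cells of 9 and MKN1 cells of 4, each over 6 untreated libraries on a common TMM scale. The highest line exceeded the lowest by 2.43-fold for the median gene and by more than 5-fold for 4 genes. Between NCI-N87 and MKN7 cells 18 members were lower and 22 higher (35.8% and 37.5% of all genes), and between MKN1 and Hs746T cells 34 lower and 9 higher (37.6% and 38.9%). NCI-N87 cells had 17 lower and 26 higher than MKN1 cells (37.7% and 38%) and 31 lower and 12 higher than Hs746T cells (37% and 39.3%), and MKN7 cells had 16 and 24 against MKN1 cells (36.5% and 35.5%) and 32 and 12 against Hs746T cells (36.8% and 37.4%). The lowest, median and highest of the 6 CCNE1 libraries were 193, 329 and 393 CPM in MKN7 cells, 90.2, 110.3 and 142 CPM in MKN1, 21.1, 22.3 and 25.7 CPM in NCI-N87 and 18.1, 19.8 and 20.3 CPM in Hs746T cells. MKN7 cells thus led without overlap, while NCI-N87 and Hs746T cells differed by less, though past the threshold (0.23, SE 0.10, adjusted p = 0.0259). CDC6 stood out in NCI-N87 cells, at 383, 413 and 505 CPM, against means of 128 CPM in MKN7 and 141 CPM in Hs746T cells, with MKN1 cells between them. The other 3 lines did not differ past the threshold for CDC6. CDC6 lies 557 kb from ERBB2, the gene of HER2, on chromosome 17, and whether this bears on its level was not tested.

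Claspin and the large CAF-1 subunit set Hs746T cells apart. CLSPN was at 249.7, 313 and 335 CPM there (lowest, median and highest), and its mean was 57.9 to 75.5 CPM elsewhere. CHAF1A was at 249.8, 265 and 302 CPM, and 62.7 to 69.8 CPM elsewhere. Both differed from each other line (-2.40 and -1.97 for NCI-N87 minus Hs746T cells). MCM10 and POLD1 varied least, with means of 54.1 to 68.0 CPM and 97.8 to 122 CPM. Per kilobase of exon, PCNA was the most abundant member in MKN7, MKN1 and NCI-N87 cells at 219.5, 145 and 136 CPM per kilobase, and MCM7 in Hs746T cells at 153, where PCNA was at 134.

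**Figure D5:**
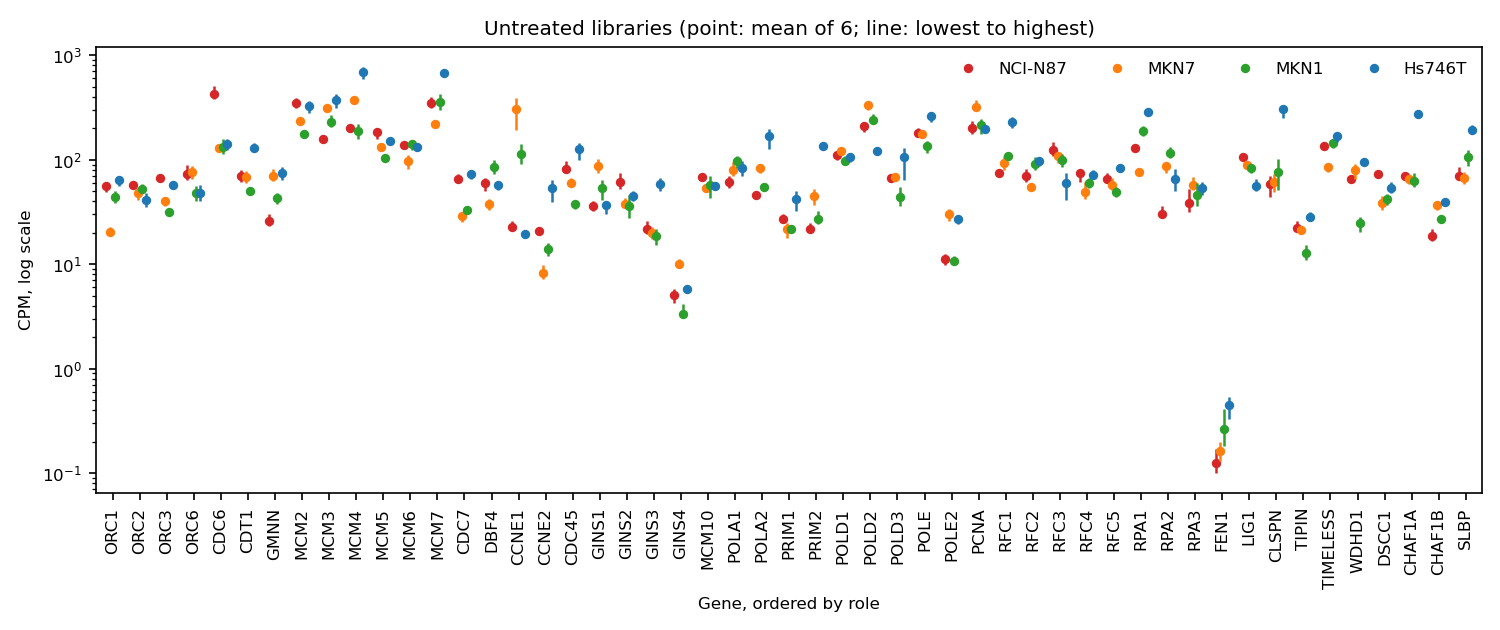
CPM of each gene in untreated cells (vertical log axis; point: mean of 6 libraries, line: lowest to highest library) in the 4 lines. CCNE1 is highest in MKN7, CDC6 in NCI-N87 and CLSPN and CHAF1A in Hs746T cells, and FEN1, whose reads may have been lost in counting, lies below 1 CPM in all lines.

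Other genes of replication, a list of 36 with 32 tested, were mostly lower as well in the lines where the members were. After 24 h of afatinib 32 fell in NCI-N87, 27 in MKN7 and 18 in MKN1 cells (31%, 25% and 13.3% of all genes), with medians of -1.29, -0.61 and -0.34. CDC25A, the phosphatase that activates CDK2, fell most in each (-3.24, -1.36 and -0.80). MCM9, a helicase gene outside the ring, was the only rise, in MKN7 cells (0.26). Of the genes of mitosis, 24 in all, some were higher at 4 h and most were lower at 24 h in NCI-N87 and MKN7 cells. At 4 h 7 rose and 0 fell in NCI-N87 cells and 13 rose and 0 fell in MKN7 cells (9.06% and 10.1% of all genes rose), led by KIF20A (0.70 and 0.76) and NDC80 (0.73 and 0.64). By 24 h 23, 24 and 19 of the 24 were lower in NCI-N87, MKN7 and MKN1 cells (31%, 25% and 13.3% of all genes). Their afatinib effect became more negative from 4 h to 24 h for 24, 24 and 12 of them (20.5%, 9.28% and 1.43% of all genes). Their medians at 24 h were -1.04, -0.73 and -0.46. In NCI-N87 cells the median of the 51 replication genes was lower than that of the mitotic genes, and in MKN7 and MKN1 cells it was higher, with no test between the lists. No gene of either list was called in Hs746T cells by edgeR.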

How the data were processed

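RNA-seq libraries of 4 gastric cancer cell lines (132 libraries, 44 conditions with 3 replicates) were made with a directional kit. The authors deposited raw read counts per Ensembl gene, 1 table per library, after trimming with Trim Galore and alignment with STAR to hg38, as the submitters' processing notes name them. The read counter and its annotation are not given in the sources used here, nor is its strand setting, so reads of genes that overlap on opposite strands (CCNE2, MCM2, GINS3, GINS4, RFC5 and MCM7 among the members) may not be told apart. Gene symbols came from GENCODE 29, which matched 56813 of 65217 identifiers and all 51 members. Libraries held 25832557 to 69434151 counts (median 50725775).

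Each line was fitted with edgeR 4.0.16 (R 4.3.3): filterByExpr (minimum count 10, minimum total 15), TMM, 1 coefficient per treatment and time over all libraries of the line, quasi-likelihood test, and Benjamini-Hochberg adjustment over all tested genes. Between 18483 and 19815 genes were tested per line, and 22832 in the joint fit of all 132 libraries, which used the trended dispersion, for differences between lines. Fold changes are edgeR estimates and carry edgeR's standard error. Figures were drawn with matplotlib 3.10.9, tables with pandas 2.3.3, correlations with scipy 1.17.1. The fit was also run on simulated counts with known changes in a small share of the genes. Those libraries were drawn independently, so the simulation cannot bear on the pairing or on scaling where many genes change. Alternatives were a fit with DESeq2 1.42.0, total counts as the only scaling, testing genes without any filter or only those with 10 or more counts in each library, a fit of just the compared groups, a block for the replicate number, and fits that omit 1 replicate. The members and the gene lists were chosen with earlier results of these data known. Named genes were the members with the largest and the smallest absolute log2FC of each role in NCI-N87 cells after 24 h of afatinib, those that rose with afatinib, and the 2 with the largest rise and fall of each other comparison. Further genes were chosen after their values were seen. Whether replicate numbers pair the samples was checked by correlating deviations from the group means: every pair of numbers was above 0.1 in 34 of 36 comparisons with untreated cells (0.259 to 0.944), and not for cetuximab and trastuzumab + afatinib in MKN1 cells at 24 h (lowest -0.0599), so the block is taken as a pairing except there. Solvent-treated libraries were not analysed here.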

Additional observations from a re-analysis of the deposited data

Results flagged for a closer look

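The afatinib effect at 24 h differed between cell lines by the interaction test, in each case more negative in the line named first. Shares in brackets are of all genes with a more negative effect. The counts were 45 members between NCI-N87 and MKN7 cells (12.7%), 48 between NCI-N87 and MKN1 cells (15.9%) and 49 between NCI-N87 and Hs746T cells (19.2%). They were 41 between MKN7 and Hs746T cells (10.5%), 10 between MKN7 and MKN1 cells (3.94%) and 5 between MKN1 and Hs746T cells (2.39%). The counts of 10 and 5 became 37 and 38 with the replicate number as a block, and they depended on the replicates included. The members for which NCI-N87 and MKN7 cells did not differ past the threshold were RPA2, RPA3, ORC2, POLD3, PRIM1 and FEN1. The untreated levels of many members differed between the same lines, and their part in these differences was not tested.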

How the results depend on the processing

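Of 663 recomputed counts of called members, 567 were equal or within 1.5 times without a turn of direction, 51 became lower, 39 higher and 6 turned direction. The 567 include comparisons with 0 called in either fit, which have no direction to keep. Counts beyond 2-fold were compared by size alone. Of single members, 3434 values were the same, 126 lost and 71 gained the threshold and 0 turned. The 24 h afatinib counts in NCI-N87 and MKN7 cells, apart from those beyond 2-fold in MKN7, were among those that held in every alternative, and the small counts at 4 h and those of MKN1 cells were not. Where a count moved, the cause was not tested.

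With DESeq2 the counts became 2 for afatinib and 2 for trastuzumab + afatinib in MKN1 cells at 4 h, 5 for trastuzumab + afatinib in MKN7 cells at 4 h, 16 for the afatinib effect at 24 h minus that at 4 h in MKN1 cells and 1 for the times in Hs746T cells. At least 10 counts in every library gave 2 for EGF at 4 h, 11 for the difference of the times and 1 for trastuzumab + afatinib at 4 h in MKN1 cells, and in MKN7 cells 4 for trastuzumab + afatinib at 4 h and 2 beyond 2-fold for afatinib at 24 h. Without a filter MKN1 cells gave 7 for EGF + cetuximab and 4 for cetuximab at 24 h, 0 for EGF and 0 for afatinib at 4 h and 4 for the difference of the times, MKN7 cells gave 4 for trastuzumab + afatinib at 4 h and 2 for the times, and MKN1 minus Hs746T gave 3. With only the groups compared, MKN1 cells gave 11 for EGF, 12 for afatinib and 2 for cetuximab at 24 h, 0 for EGF and 0 for afatinib at 4 h and 0 for the difference of the times, and MKN7 cells 7 for afatinib and 8 for trastuzumab + afatinib at 4 h and 0 for the times. Library size alone turned 3 counts, to 13 for EGF at 24 h and 12 for the times in MKN1 cells and 6 for the times in MKN7 cells. It also gave 4 for EGF + cetuximab and 5 for cetuximab at 24 h, 8 for EGF and 0 for afatinib at 4 h and 12 for the difference of the times in MKN1 cells, 8 for afatinib and 7 for trastuzumab + afatinib at 4 h in MKN7 cells, and 2 beyond 2-fold for either treatment at 24 h in MKN7 cells and for MKN7 minus Hs746T.

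With the replicate block the counts were 20 for afatinib and 2 for trastuzumab + afatinib at 4 h and 6 for the times in Hs746T cells, 26 for EGF + cetuximab and 33 for cetuximab at 24 h, 3 for EGF, 3 for afatinib, 2 for cetuximab and 3 for trastuzumab + afatinib at 4 h, 29 for the times and 33 for the difference of the times in MKN1 cells, 19 for afatinib and 19 for trastuzumab + afatinib at 4 h and 13 for the times in MKN7 cells, 12 and 17 at 4 h in NCI-N87 cells, and 38 for MKN1 minus Hs746T and 37 for MKN7 minus MKN1 in the interaction. The pairing of untreated cells across times was not checked. In MKN1 cells at 24 h the cetuximab and the trastuzumab + afatinib samples share only a number with the untreated ones. Their deviations did correlate with each other by number (0.756, 0.734 and 0.808). Whether they form a set apart from the untreated samples was not tested. The block moved no other count by over 1.5 times. The share of all genes called with the block is not given here, so these counts are not set against it.

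Leaving out a replicate gave, in MKN1 cells, 0 to 9 for EGF + cetuximab, 7 to 16 for EGF, 9 to 41 for afatinib, 13 to 39 for trastuzumab + afatinib and 0 to 8 for cetuximab at 24 h, 0 to 1 for EGF, 0 to 0 for afatinib and 0 to 1 for trastuzumab + afatinib at 4 h, 6 to 16 for the times and 0 to 17 for the difference of the times. MKN7 cells gave 1 to 5 for afatinib, turned in direction each time, and 1 to 2 for trastuzumab + afatinib at 4 h, 2 to 6 beyond 2-fold at 24 h, 0 to 7 for the times and 23 to 45 for the difference of the times. NCI-N87 cells gave 2 to 8 for afatinib, 0 to 1 beyond 2-fold, and 2 to 4 for trastuzumab + afatinib at 4 h, and Hs746T cells 0 to 1 for the times. The interactions gave 0 to 8 for MKN1 minus Hs746T, 25 to 39 for MKN7 minus Hs746T and 0 to 8 for MKN7 minus MKN1. FEN1 had the fewest counts of the members, 2 to 39 in a library, which limits its values, and why they are so few was not tested.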
